A study of Drosophila melanogaster with 596 samples.

Results

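Cytosolic aminoacyl-tRNA synthetases and the initiation and elongation factors of translation were followed across crosses of Drosophila melanogaster as a set of 41 genes, taken by name: 19 synthetases, 18 initiation factors and 4 elongation factors. Of these, 35 of the 7422 genes in the table had values, namely 14 synthetases, 17 initiation factors and all 4 elongation factors. No row was found for AlaRS (CG13391), CysRS (CG8431), GlyRS (CG6778), LeuRS (CG33123), ValRS (CG4062) or the initiation factor subunit eIF3c (CG4954), which were not analysed here. Each measured member had 1 row.

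RNA came from pools of about 300 heads of females aged 3 to 5 days, which were F1 progeny of recombinant lines from the Drosophila Synthetic Population Resource, each line a mosaic of founder haplotypes. Lines of population A were the mothers and lines of population B the fathers, so that every female carried 1 haplotype from each. Of the 596 crosses, 63.4% joined subpopulation pA1 mothers to pB2 fathers and 36.6% joined pA2 mothers to pB1 fathers, and each had 1 column of values in the table, so that no spread between replicates could be measured. These are called pA1-pB2 and pA2-pB1 crosses. Females shared vials with males before collection, so their mating state was not controlled, and a head holds brain, eye, fat body and muscle, so that more cells of a type and more RNA per cell cannot be told apart.

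Aminoacyl-tRNA synthetases join each amino acid to the tRNA that carries its anticodon, and in animals several of them sit together in the multisynthetase complex. Initiation factors bring the initiator tRNA and the mRNA to the small ribosomal subunit and prepare the joining of the large one. Elongation factors then deliver each charged tRNA and move the ribosome along the message.

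The deposited values were residuals turned into normal quantiles, for which the median of every gene lies near 0 and the highest and lowest cross lie at 3.146 and -3.146. A score therefore ranks a cross within 1 gene, and levels cannot be compared between genes. The comparison open to these data is which genes were high and low in the same crosses, measured by Pearson's r over the 596 crosses for every one of 27539331 gene pairs. A pair was called where its p, adjusted over all pairs by the Benjamini-Hochberg method, was under 0.05, which here meant an r of at least 0.105 in either direction. Among all gene pairs, 11.8% were called positive and 9.56% negative, with a median r of 0.00327. Since crosses share founder haplotypes and a parent population, they are not fully independent, and the p-values may be too small.

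Of the 595 pairs among the 35 members, 39% were called positive and 7.56% negative, with a median r of 0.0699. The share of positive pairs was highest among the subunits of eIF3 and among synthetases and lowest between synthetases and elongation factors. Initiation factors had ties with both other groups, and elongation factors had more with initiation factors than with synthetases. The plot of r for every pair of members shows these blocks.

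**Figure D1:**
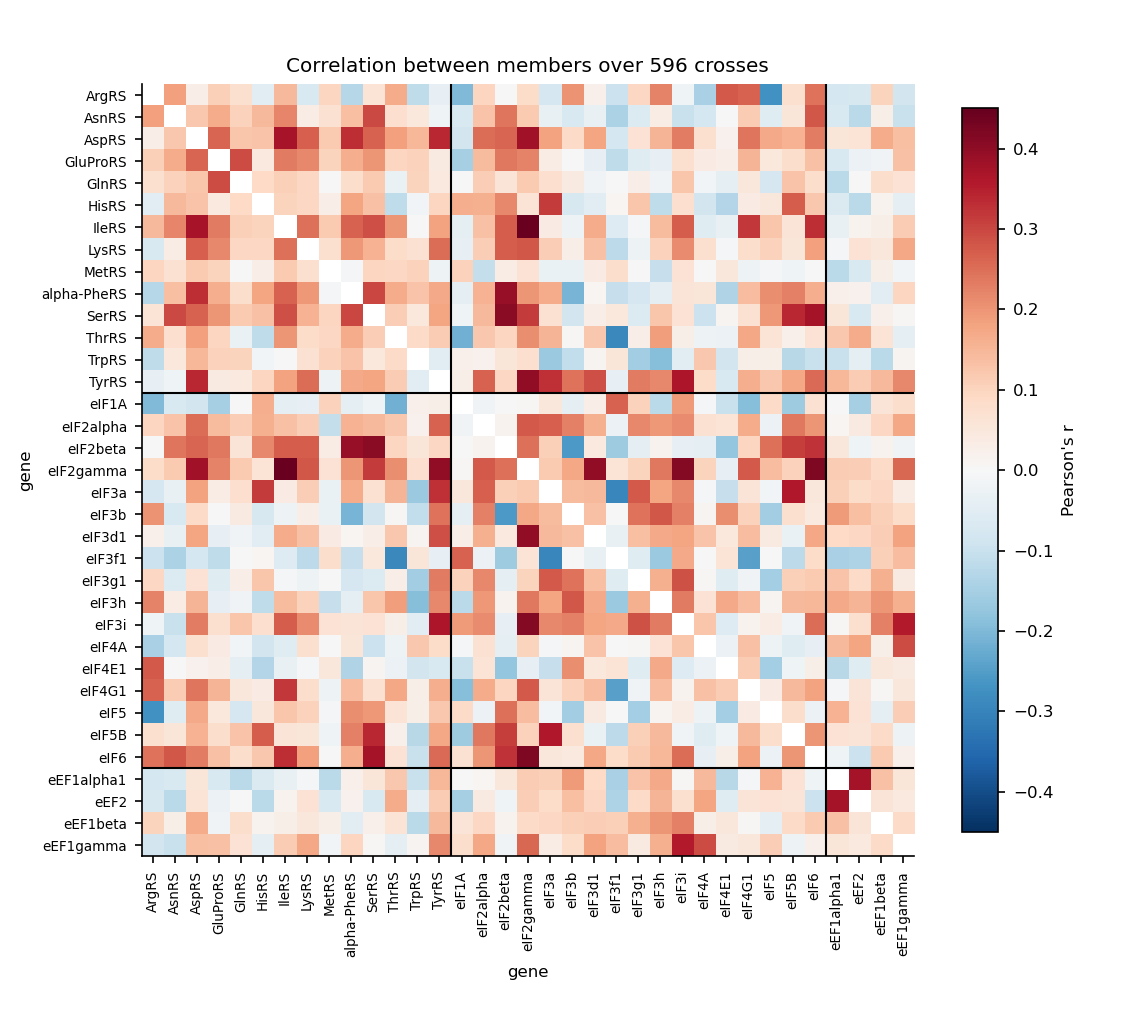
Pearson's r between each pair of the 35 measured members over 596 crosses, with red for positive and blue for negative r and lines between synthetases, initiation factors and elongation factors. The highest r was 0.444, between IleRS and eIF2gamma, and the lowest was -0.292, between eIF3a and eIF3f1.

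Among the 14 synthetases, 46 of 91 pairs were called positive and 3 negative, which is 50.5% positive against 11.8% over all gene pairs. The median r was 0.107. AspRS and IleRS, which charge aspartate and isoleucine, had the widest ties. AspRS was called positive with 12 of the 13 other synthetases, with a median r of 0.184, and IleRS with 11 of 13, with a median r of 0.198. SerRS and the alpha subunit of the phenylalanine enzyme, alpha-PheRS, followed with 10 each, with medians of 0.158 and 0.165. The bifunctional GluProRS, which charges both glutamate and proline, had 8, AsnRS 7, and LysRS, ThrRS and TyrRS 6 each. ArgRS, GlnRS and HisRS had 4 each, while MetRS and TrpRS had the fewest with 2 each, and medians of 0.0922 and 0.0689. The lowest median was that of ArgRS, at 0.0629, and ArgRS was also called negative with 2.

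The highest r between synthetases was that of AspRS and IleRS, at 0.372 (95% interval 0.301 to 0.44), and both scores lay on the same side of 0 in 61.4% of crosses. In 30.4% of crosses both were above 0 and in 31% both were below. As the median of every gene lies near 0, these shares must be nearly equal. The value was 0.362 in pA1-pB2 crosses and 0.393 in pA2-pB1 crosses. AspRS was also tied to TyrRS, the tyrosine enzyme, with r = 0.339, and to alpha-PheRS with r = 0.331. These pairs had adjusted p of 3.15e-18, 7.48e-15 and 4.14e-14. With 10 further principal components removed, AspRS had r = 0.0851 with TyrRS and 0.113 with alpha-PheRS, neither of them called. The negative synthetase pairs were small: ArgRS and alpha-PheRS at r = -0.128 (adjusted p = 0.0126), HisRS and ThrRS at -0.114 (adjusted p = 0.0299; not called under rank correlation, with adjusted p = 0.0893, in either kind of cross alone or with 10 further principal components removed), and ArgRS and TrpRS at -0.114 (adjusted p = 0.0305). That of ArgRS and TrpRS was -0.192 in pA1-pB2 and 0.025 in pA2-pB1.

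Pairs inside and outside the multisynthetase complex had similar medians, and their difference was not tested. The complex holds ArgRS, AspRS, GluProRS, GlnRS, IleRS, LysRS and MetRS among the measured enzymes. Pairs with both enzymes in it had a median r of 0.118, with 13 of 21 called positive and none negative. Pairs with neither enzyme in it had a median of 0.113 with 12 of 21 positive, and mixed pairs one of 0.101 with 21 of 49 positive. Within the complex the highest r was that of AspRS and IleRS, given above. GluProRS and GlnRS, named after the values were seen, had r = 0.293 (adjusted p = 7.08e-11). The scaffold proteins of the complex, AIMP1 and AIMP2, which are not members of the set, were called positive with 9 and 7 of the 14 synthetases. AIMP2 was also called negative with 1, and the scaffold AIMP3 had no row. The list of other translation factors that holds them had 11% positive pairs with all genes. The beta subunit of the phenylalanine enzyme, whose product pairs with that of alpha-PheRS, was called positive with 10 of 14, and its r with alpha-PheRS was 0.219 (adjusted p = 3.64e-06).

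Among the 17 initiation factors, 60 pairs were called positive and 14 negative, or 44.1% positive, with a median r of 0.0755. The strongest ties centred on eIF2gamma, the subunit of eIF2 that binds GTP and the initiator tRNA. Its r was 0.42 with eIF6, a factor that keeps the large subunit from joining early and takes part in making it, and both lay on the same side of 0 in 66.9% of crosses. Its r was 0.414 with eIF3i and 0.399 with eIF3d1, both subunits of eIF3. The adjusted p of these pairs were 7.33e-24, 4.97e-23 and 3.51e-21. The gene of eIF2gamma shares its transcription unit with Su(var)3-9, so that probe signal may not belong to 1 of them alone; Su(var)3-9 has a row of its own here, and its r with eIF2gamma was 0.213.

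The subunits of eIF2 did not all vary together. The r of eIF2alpha, the subunit phosphorylated under stress, with eIF2gamma was 0.275 (adjusted p = 1.39e-09), and that of eIF2beta with eIF2gamma was 0.248 (adjusted p = 8.41e-08). Between eIF2alpha and eIF2beta r was 0.0159 (95% interval -0.0645 to 0.0961), which was not called. With 10 further principal components removed, this pair had r = -0.123 (adjusted p = 0.0419) and eIF2beta with eIF2gamma had 0.0619, which was not called. The cap-binding complex was loosely tied. The RNA helicase eIF4A and the scaffold eIF4G1 had r = 0.132 (adjusted p = 0.00998), and was called in neither kind of cross alone. The cap-binding eIF4E1 and eIF4G1 had 0.116 (adjusted p = 0.0272), with 0.19 in pA1-pB2 and 0.00153 in pA2-pB1. That pair was not called under rank correlation (adjusted p = 0.0561), in pA2-pB1 alone or with 10 further principal components removed (r = 0.0488). Between eIF4A and eIF4E1 r was -0.0249, which was not called.

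The scaffold complex eIF3 had the densest block. Of its 21 pairs of measured subunits, 16 were called positive and 2 negative, or 76.2% positive, with a median r of 0.171. That median was 0.192 in pA1-pB2 and 0.074 in pA2-pB1 crosses. Leaving aside eIF3f1, a choice made after the values were seen, all 15 pairs among eIF3a, eIF3b, eIF3d1, eIF3g1, eIF3h and eIF3i were called positive, with r from 0.131 to 0.287. The highest was that of eIF3g1 and eIF3i. The subunit eIF3e, which is not in the set, had r = 0.251 with eIF3b. Of the measured eIF3 subunits outside the set, eIF3k was called positive with 12 of the 17 initiation factors and eIF3l with 10. The subunit eIF3e had 9, eIF3m 6 and eIF3j 3, and eIF3l was also called negative with 2. The list of other translation factors that holds them had 11% positive pairs with all genes. Pairs of an eIF3 subunit with a factor outside eIF3 were called positive in 28 of 70 cases, with a median r of 0.06.

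The subunit eIF3f1 did not share the ties of the other subunits. With the other eIF3 subunits its median r was -0.0429, with 1 of 6 pairs called positive and 2 negative. Its r with eIF3a was -0.292 (95% interval -0.364 to -0.217, adjusted p = 7.91e-11), with the 2 scores on the same side of 0 in 38.3% of crosses. The value was -0.242 in pA1-pB2 and -0.378 in pA2-pB1. Its r with eIF4G1 was -0.245 and with ThrRS, the threonine enzyme, -0.292. It was called positive with none of the 14 synthetases and negative with 4. On chromosome arm 3R the genes of eIF3a and eIF3f1 lie 21 genes apart in the RefSeq annotation of Release 6, so that a cross carries much the same founder haplotypes at both. In pA2-pB1 the score of eIF3f1 also drifted along the line number, with a correlation between neighbouring crosses of 0.389, against a 95th percentile over all genes of 0.201. After a running mean along the line number was taken out, its r with eIF3a was -0.26.

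Negative pairs made up 10.3% of the pairs among initiation factors, near the 9.56% over all gene pairs. The pair of eIF2beta and eIF3b had r = -0.26 (adjusted p = 1.46e-08), with -0.253 and -0.27 in pA1-pB2 and pA2-pB1 crosses. The scanning factor eIF1A and the cap-binding eIF4E1 had no clear side. Each was called positive with 3 of the 16 other initiation factors and negative with 3, and their medians were 0.00382 and -0.0227. The activator of the GTPase of eIF2, eIF5, had 2 positive and 3 negative, and eIF5B, the factor of subunit joining, had 7 and 2.

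The 4 elongation factors formed 6 pairs, of which 2 were called positive, or 33.3%, and none negative. The tRNA-delivering eEF1alpha1 and the translocase eEF2 had r = 0.376 (95% interval 0.305 to 0.443, adjusted p = 1.35e-18), with both on the same side of 0 in 62.9% of crosses. It was 0.386 in pA1-pB2 and 0.357 in pA2-pB1. The other called pair was eEF1alpha1 and eEF1beta, a subunit of its exchange factor, with r = 0.132 (adjusted p = 0.0101). The remaining 4 pairs had r between 0.0433 and 0.0854. Of factors outside the set, the paralog eEF1alpha2 had r = 0.206 with eEF1alpha1, and since their coding sequences are close this value is uncertain. The exchange factor subunit eEF1delta had r = 0.0263 with eEF1beta, which was not called, but it was called positive with 11 of the 14 synthetases. The list of other translation factors that holds it had 11% positive pairs with all genes.

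**Figure D2:**
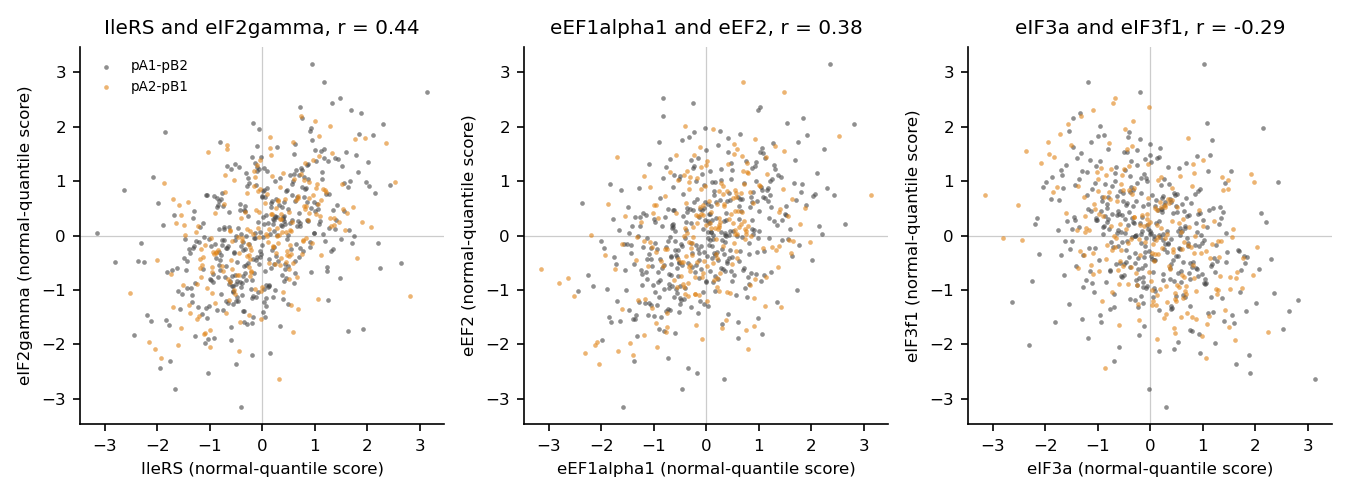
Scores of 3 pairs of members in each of 596 crosses, with grey points for pA1-pB2 crosses and orange points for pA2-pB1 crosses. Both axes are normal-quantile scores. IleRS and eIF2gamma rise together with r = 0.444, eEF1alpha1 and eEF2 with r = 0.376, and eIF3a falls as eIF3f1 rises with r = -0.292.

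Between the groups, synthetases and initiation factors were called positive in 87 pairs and negative in 19, or 36.6% positive. The tie of IleRS with eIF2gamma was the highest of all member pairs, at r = 0.444 (95% interval 0.377 to 0.506, adjusted p = 5.62e-27). Both scores were above 0 in 33.9% of crosses and below 0 in 34.6%. In pA1-pB2 r was 0.444 and in pA2-pB1 it was 0.442, so that the value was nearly the same in both kinds of cross. SerRS and eIF2beta had r = 0.405, and TyrRS and eIF2gamma had r = 0.4. Of the single factors, eIF2alpha was called positive with 11 of 14 synthetases, eIF2gamma and eIF6 with 10 each, and eIF2beta and eIF4G1 with 8 each.

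TyrRS had more ties with the factors than with its fellow synthetases. It was called positive with 6 of 13 synthetases, at a median r of 0.0964, but with 12 of 17 initiation factors, at a median r of 0.216, and with all 4 elongation factors. Its r with eEF1gamma, a subunit of the exchange factor named after the values were seen, was 0.216 (adjusted p = 4.92e-06). Only MetRS and TrpRS had fewer than 4 positive pairs with initiation factors: MetRS had none and 1 negative, and TrpRS had 1 and 5 negative.

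The lowest values across roles were those of ThrRS with eIF3f1, given above, of ArgRS with eIF5, at r = -0.271 (adjusted p = 2.55e-09), and of ThrRS with eIF1A, at -0.218 (adjusted p = 4.12e-06). The genes of ArgRS and eIF5 lie 28 genes apart on the X chromosome, and their r was -0.265 in pA1-pB2 and -0.286 in pA2-pB1. After 10 further principal components were removed it was 0.0709, which is of the opposite sign and was not called. The neighbours eIF3h and eIF3i, 23 genes apart on 2L, had r = 0.232. The neighbour pairs were picked after the values were seen, and what founder haplotypes shared by neighbours add to their r was not tested.

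Elongation factors stood close to initiation factors, with 26 of 68 pairs positive and 4 negative, or 38.2% positive. With synthetases they had 11 of 56 positive and 5 negative, or 19.6%. That share with synthetases was 8.93% in pA1-pB2 crosses, where 8.26% of all pairs were positive. It was 3.57% against 4% with 10 further components and 12.5% against 11.4% with the running mean removed. Under rank correlation it was 17.9% against 10.8%, and in pA2-pB1 crosses 7.14% against 3.48%. The highest values were those of eEF1gamma with eIF3i, at r = 0.356 (adjusted p = 1.74e-16), and with eIF4A, at 0.294 (adjusted p = 5e-11), both named after the values were seen. The mean score of the synthetases had r = 0.445 with that of the initiation factors and r = 0.0622 with that of the elongation factors, while initiation and elongation factors had 0.351. These r of means are descriptions.

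How far single crosses moved as a whole was read from the mean score over each group. For the synthetases the mean ran from -1.49 to 1.3, with a median of 0.0117 and an SD of 0.425. It ran from -1.49 to 1.3 in pA1-pB2 and from -1.11 to 1.1 in pA2-pB1. The overlap of these ranges is no result, as the subpopulation means had been set equal before deposit. The cross with the highest mean, from maternal line 11453, had 13 of 14 synthetases above 0 but only 8 of 17 initiation factors. The cross with the lowest, from maternal line 11469, had 1 of 14 synthetases and 3 of 17 initiation factors above 0, while its elongation factors averaged 0.584. For the elongation factors the mean ran from -1.52 to 2.05, and in the highest cross, from maternal line 11014, the lowest of the 4 factors was at 1.25. These crosses were picked as the ends of the range and support nothing further. The first principal component held 20% of the variance of the 14 synthetases and 17.1% of that of the 17 initiation factors. It held 36% of that of the 4 elongation factors. An equal share for every component would be 7.14%, 5.88% and 25%. As the first component is the largest, independent genes would also lie above these shares, and the difference was not tested.

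The other genes of protein synthesis separated the 3 groups of members. Ribosome biogenesis genes, which make and process ribosomal RNA in the nucleolus, varied with synthetases and initiation factors. Of the pairs of 13 such genes with synthetases, 75.8% were called positive and 1 pair negative, where these genes had 14% positive pairs with all genes. With initiation factors 62.4% of pairs were positive and none negative, and with elongation factors 14 of 52, or 26.9%. The small nucleolar RNA protein hoip was the closest to the synthetase mean in this list, with r = 0.527.

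Members differed widely in this tie. The r with the mean of the biogenesis genes was highest for eIF6, at 0.699, and eIF6 was called positive with all 13. IleRS followed with 0.494, eIF2gamma with 0.489 and SerRS with 0.408, each also with 13 of 13. AspRS had 0.357, eIF2beta 0.348 and TyrRS 0.328. At the other end TrpRS had 0.0133 and MetRS 0.0448, with 1 of 13 called positive in each, and eIF4A had -0.0524 with none. Of the eIF2 subunits, 36 of 39 pairs with biogenesis genes were positive, of the eIF3 subunits 64 of 91, and of the 3 eIF4 factors 12 of 39.

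Cytosolic ribosomal proteins showed the opposite order. Of the pairs of 72 ribosomal proteins with elongation factors, 77.4% were called positive and none negative. With initiation factors 583 of 1224 were positive and 53 negative, or 47.6%. With synthetases 15.4% were positive and 13.2% negative, which is near the 10.7% positive and 10.6% negative that ribosomal proteins had with all genes. The closest of them to the synthetase mean was RpL34a, with r = 0.171. Several ribosomal proteins have near-identical copies in the genome, and those rows are uncertain.

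Among members, eEF1gamma was called positive with 61 of the 72 ribosomal proteins, eEF1beta with 59, eEF1alpha1 with 57 and eEF2 with 46. The subunit eIF3i reached 62, eIF3h 57, eIF4A 54, eIF2gamma 52 and eIF3b 51. TyrRS, with 43 positive and none negative, was the highest of the synthetases, followed by AspRS with 29 and LysRS with 27. AsnRS, MetRS and TrpRS had none positive and 20, 22 and 27 negative. The r with the mean of the ribosomal proteins was 0.414 for eEF1gamma, 0.401 for eEF1alpha1, 0.387 for eIF3i and -0.153 for TrpRS.

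**Figure D3:**
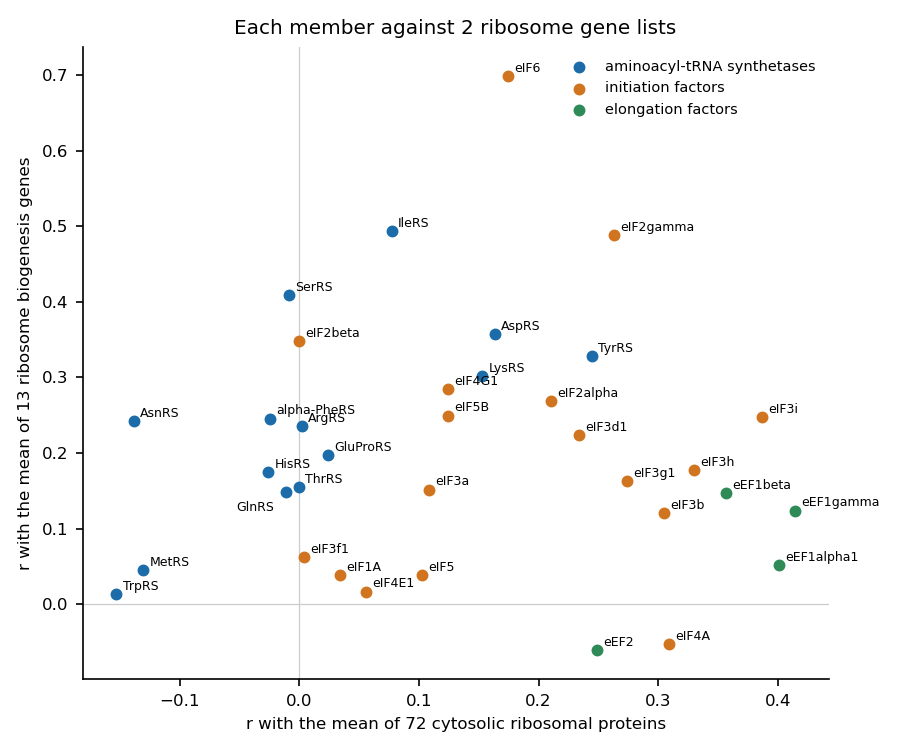
For each of the 35 members, r over 596 crosses with the mean score of 72 cytosolic ribosomal proteins (horizontal) and of 13 ribosome biogenesis genes (vertical), coloured by role. Elongation factors lie low on the right, most synthetases lie on the left, eIF6 is at the top with 0.699 and eIF2gamma and TyrRS lie between.

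Further lists differed between the roles. The 25 other translation factors measured were called positive with synthetases in 34.9% of pairs, with initiation factors in 31.5% and with elongation factors in 27%, against 11% with all genes. Of these the closest to the synthetase mean was eEF1delta, with r = 0.39. The release factor eRF3 was called positive with 9 of 14 synthetases, and eEF5, the hypusine-carrying factor, with 9 of 17 initiation factors, 4 of 4 elongation factors and 1 of 14 synthetases. In the exchange factor of eIF2, the subunit eIF2Bepsilon was called positive with 8 of 14 synthetases, and eIF2Bdelta with none.

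The 11 measured mitochondrial synthetases, which serve the separate translation machinery of the mitochondrion, were near their background with cytosolic synthetases alone. They were called positive with cytosolic synthetases in 23 pairs, or 14.9%, against 13.5% with all genes. With elongation factors 1 of 44 pairs was positive, or 2.27%. With initiation factors 24 pairs were positive and 37 negative, or 19.8% negative against a background of 8.21%. TyrRS-m stood above the rest of the list, with 11 of 14 cytosolic synthetases positive and r = 0.33 with their mean, and ArgRS-m was called negative with 9 of 14.

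The 31 proteasome subunits, which break proteins down, were called positive with synthetases in 15.2% of pairs against 14.7% with all genes, and negative in 14.3% against 8.83%. With elongation factors no pair was positive and 39 were negative, or 31.5%. With initiation factors 26.9% of 527 pairs were negative. For eIF3 subunits 81 pairs were negative and 5 positive. Their closest gene to the synthetase mean was Rpn10, with r = 0.192.

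Genes tied to amino acid shortage and stress were close to their background of 9.28% positive pairs: 13.3% with synthetases, 10.9% with initiation factors and 10.7% with elongation factors. Asparagine synthetase, AsnS, was called positive with 6 of 14 synthetases and was the closest of this list to their mean, with r = 0.238. The pseudokinase gene trbl was called positive with 1 synthetase and negative with 7.

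**Figure D4:**
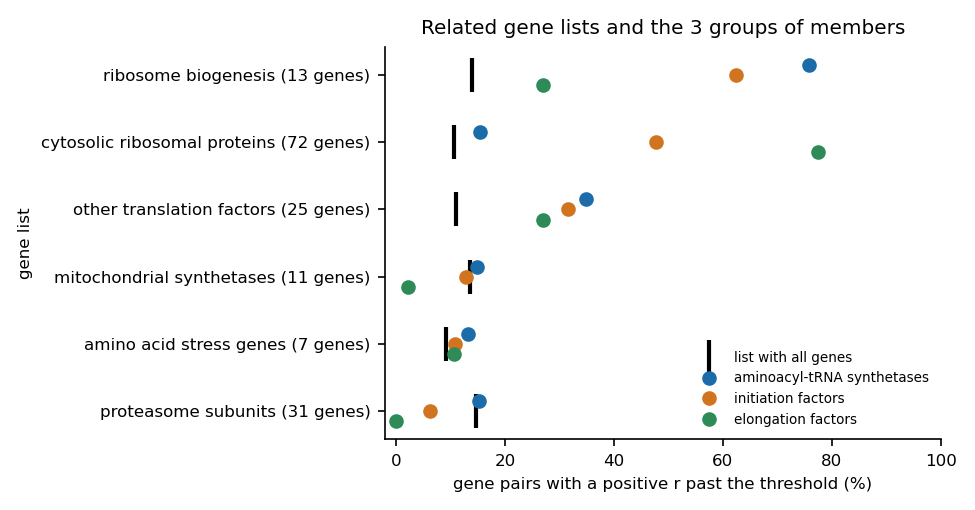
Share of gene pairs with a positive r past the threshold, in percent, for 6 related gene lists against the synthetases, initiation factors and elongation factors, with a black bar at the share of the list with all genes. Biogenesis genes reached 75.8% with synthetases, and ribosomal proteins 77.4% with elongation factors.

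Genes of growth, nutrient and stress signalling, with the clock gene tim, were set beside the members and are called regulators here. Whether they regulate the members was not tested. Of 11 listed, 10 had a row; S6k had none. Together they were called positive in 78 of 350 pairs with members and negative in 19, where over all genes 12.2% of their pairs were positive and 11.3% negative. The shares over all genes given below for single regulators are those of positive pairs. For negative counts only the 11.3% of the regulators together was measured. Myc, the growth regulator that drives ribosome production, had the most ties, being called positive with 8 of 14 synthetases, 12 of 17 initiation factors and 2 of 4 elongation factors, against 14.4% of all genes. Its r with the synthetase mean was 0.366. Its r with eIF6 was 0.428 (adjusted p = 6.79e-25), with 0.439 and 0.408 in pA1-pB2 and pA2-pB1 crosses. With 10 further principal components removed it was 0.11, which was not called (adjusted p = 0.0774).

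Factors of insulin and nutrient signalling, taken with Dref, differed among themselves. The transcription factor foxo was called positive with 4 synthetases, 8 initiation factors and 1 elongation factor and negative with 2 of the 4 elongation factors, against 14.2% positive over all genes, with r = 0.349 for eIF3i. Thor, the binding protein that holds back eIF4E, was called positive with 2, 8 and 2, against 10.9%, and negative with 1 synthetase, with r = 0.278 for eIF6 (0.0405 and not called with 10 further components). The kinase mTor was called positive with 2 synthetases and no factor, against 12.7%, and negative with 1 synthetase and 4 initiation factors, and its r with eIF6 was -0.187 (adjusted p = 0.00011), which after 10 further principal components was 0.0328. The sugar-responsive sug was called positive with 3, 5 and 1, against 7.1%, with r = 0.168 for TyrRS. Dref, a factor of growth and replication genes, was called positive with 6, 3 and 2, against 10.7%. Its r with eEF1alpha1 was 0.207 (0.0857 and not called with 10 further components).

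The stress pathway that acts through eIF2alpha had few positive ties with synthetases. The transcription factor crc, the fly ATF4, was called positive with no synthetase, 2 initiation factors and 2 of the 4 elongation factors, against 13.4% of all genes, and negative with 2 synthetases and 2 initiation factors, and its strongest value was r = 0.217 with eIF5. The kinase Gcn2, which senses uncharged tRNA, was called positive with 2 synthetases and 3 initiation factors, against 16.2%, and negative with 1 initiation factor, with r = -0.148 for eIF2beta. The kinase PEK, which senses stress of the endoplasmic reticulum, was called positive with no member, against 13.5%. It was called negative with 5 of 35, against 11.3% for the regulators together, with r = -0.165 for eIF3i. With 10 further principal components removed, crc with eIF5 had r = 0.0964, Gcn2 with eIF2beta -0.0223 and PEK with eIF3i -0.094, none of them called. Gcn2 with eIF2beta was also not called in pA2-pB1 crosses alone, and PEK with eIF3i not in pA1-pB2 crosses alone. Outside this pathway, the clock gene tim was called positive with none, against 8.38%, and negative with 1 elongation factor, and its strongest value was r = -0.133 with eEF2. These counts concern transcripts and do not measure phosphorylation.

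The genes outside the set that were closest to the mean of each group are given as a description. For the synthetases they were Dph5, with r = 0.557, La with 0.528, hoip with 0.527, RpLP0-like with 0.527 and Nop56 with 0.515, and the lowest were CG31313 at -0.41, CG4572 at -0.405 and CG18135 at -0.371. Dph5 makes diphthamide, the modified residue of eEF2, and La binds new RNA polymerase III transcripts such as tRNA precursors. For the initiation factors they were nop5 with 0.579, RpLP0-like with 0.552, Nop60B with 0.533, mod with 0.533 and hoip with 0.53, most of them nucleolar. For the elongation factors they included RpS16 with 0.472, RpS9 with 0.443, RpS6 with 0.432 and Rack1 with 0.431, which are ribosomal or bound to the ribosome.

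The correlations were then compared between the subpopulation crosses, as the means of the subpopulations had been set equal before deposit. Of 595 member pairs, 4 differed past the threshold by a test of the difference of Fisher's z, adjusted over all gene pairs, where 0.164% of all pairs did so. At an unadjusted p under 0.05, 82 member pairs, or 13.8%, differed, against 10.4% of all pairs. The r of eIF2gamma and eIF3d1 was 0.541 in pA1-pB2 and 0.21 in pA2-pB1 (adjusted p = 0.0133), positive in both. For GluProRS and eIF3d1 it was 0.119 and -0.25 (adjusted p = 0.0212), and for eIF3i and eEF2 it was -0.0717 and 0.318 (adjusted p = 0.0105). For eIF4E1 and eEF2 it was 0.0718 and -0.265 (adjusted p = 0.0436). Both recurring genes had scores that differed in other ways between the crosses. That of eIF3d1 had a median of 0.0954 and an SD of 0.878 in pA1-pB2 and a median of -0.241 and an SD of 1.17 in pA2-pB1. That of eEF2 drifted along the line number in pA2-pB1, with a correlation between neighbouring crosses of 0.239. With the running mean along the line number removed, 3 of the 4 pairs were still called, and eIF4E1 and eEF2 were not. With 10 further principal components removed, no member pair was called.

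**Figure D5:**
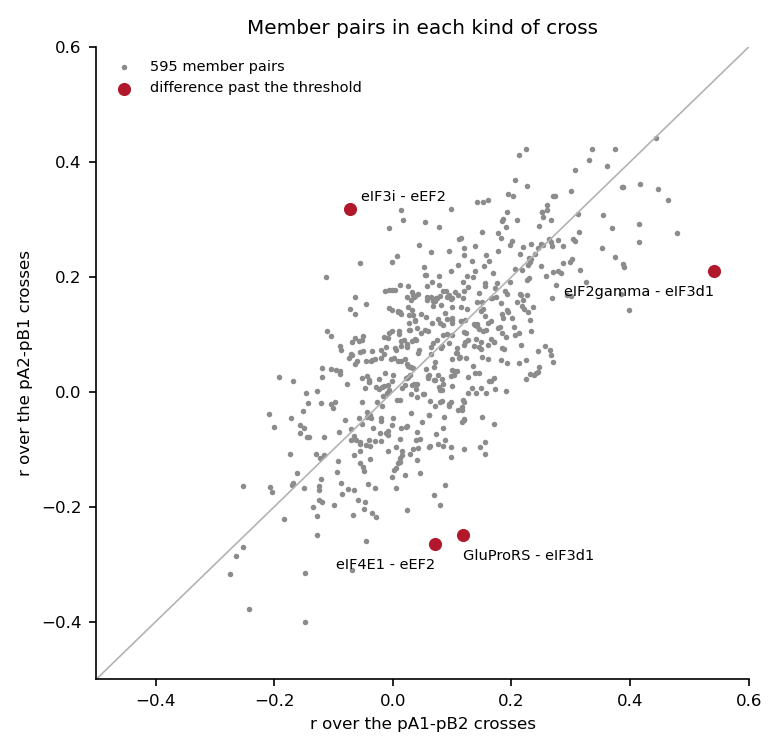
Pearson's r of each of the 595 member pairs over the pA1-pB2 crosses (horizontal) and over the pA2-pB1 crosses (vertical), with a line where both are equal. Red points mark the 4 pairs whose difference passed the threshold, of which eIF2gamma and eIF3d1 had 0.541 and 0.21.

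Tissue markers were measured beside these results, since the mix of tissues in a head can move many genes at once. Of the markers of fat body, muscle, photoreceptors, neurons, glia and egg chamber, 17 had a row, and 26.6% of their pairs with members were called in either direction, against 22.5% of their pairs with all other genes. As the values hold no level, they cannot show how much of a tissue the samples held. Muscle markers were called positive with synthetases in 30.4% of pairs against 13.2% with all genes, and the 1 egg chamber marker in 5 of 14 against 11.8%. The muscle myosin Mhc was called positive with 9 of the 14, with r = 0.313 for their mean, and up, a troponin T, with 6, while Act88F and TpnC4 had 1 each. Of the other lists the genes closest to the synthetase mean were dec, an eggshell gene, with 0.193, elav of neurons with 0.119, Gs2 of glia with 0.11, ninaC of photoreceptors with 0.0182 and Yp1 of fat body with 0.00593, while ninaE of photoreceptors had -0.177. With elongation factors, fat body markers were positive in 5 of 12 pairs, against 6.86% with all genes, and photoreceptor markers in 25%, against 8.68%. The yolk protein gene Yp3 had r = 0.211 with the mean of the initiation factors. The part of tissue make-up in the correlations was not tested.

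The ties were measured again after 10 further principal components of all genes were taken out, beyond the 10 the authors had removed. Positive pairs then fell to 4% of all pairs and to 14.3% among synthetases, 22.8% among initiation factors and 52.4% among eIF3 subunits. Biogenesis genes with synthetases fell to 11.5%, while ribosomal proteins with elongation factors kept 65.3%. Of the 43 single tests that had been called, which hold eIF2gamma and eIF3d1 more than once, 22 were then not called. Among those still called, r was 0.328 for eIF3g1 and eIF3i, 0.288 for eIF2gamma and eIF3d1, 0.251 for eEF1alpha1 and eEF2, and 0.245 for eIF4A and eEF1gamma. That of IleRS and eIF2gamma fell to 0.105 (adjusted p = 0.0959), that of eIF2gamma and eIF6 to 0.116 (adjusted p = 0.0578) and that of eEF1alpha1 and eEF1beta to 0.0845 (adjusted p = 0.208), none of them called. That of eIF3f1 and eIF4G1 was -0.0833, which was not called, and that of AspRS and IleRS fell to 0.137 (adjusted p = 0.0191).

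Of 53 single tests by 100000 permutations of the crosses, two-sided, 32 gave 1e-05, the smallest p that this number can give. These counts hold eIF2gamma and eIF3d1 both as a high pair and as a pair that differed between crosses. Spearman's rho differed from r by at most 0.0277 in these pairs, and leaving out the 2 crosses farthest from the median of the first gene moved r by at most 0.0234.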

How the data were processed

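RNA from female heads of 596 crosses (378 pA1-pB2, 218 pA2-pB1) was hybridised by the authors to NimbleGen arrays, background-corrected and quantile-normalised with the oligo package, and summarised by RMA. Per the study's methods, probes had to match FlyBase coding sequences exactly, those with several SNPs or a SNP effect were dropped, transcripts needed 4 probes, and isoforms with pairwise r of at least 0.95 were averaged. The deposited values are scores: normal quantiles, corrected by the authors for subpopulation and 10 principal components and again set to normal quantiles. Neither levels nor subpopulation means can be read from them, precision is set by how many arrays there were, and removed components may hold shared biology.

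Rows of a gene were averaged and scaled in Python 3.11.15 with numpy 2.4.6, scipy 1.17.1 and pandas 2.3.3. Pearson's r was computed for all gene pairs, with p from the t distribution and Benjamini-Hochberg adjustment over all 27539331 pairs, threshold 0.05. Differences between subpopulation crosses used Fisher's z. Symbols and gene order came from the RefSeq annotation of Release 6, where 7349 of 7422 genes matched. Scripts were tested on simulated data.

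By rule the text names every member, the 3 highest and 3 lowest pairs within synthetases and within initiation factors, all elongation pairs, the listed regulators, the genes closest to the synthetase mean and of each list the closest one. Pairs across roles, subunit and neighbour pairs, other list genes and the genes close to the other means were added with values in view. The members and lists were chosen with earlier results of these data known. Alternatives were rank correlation, each kind of cross alone, 10 further components, a running mean over 12 crosses along the line number, the first row of each gene, and leaving out pairs on the same arm. Per the study's methods a pair of crosses was prepared again, but each cross has 1 column here. Founder haplotypes were not used here. A further gene close to the elongation mean is not reported here.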

Additional observations from a re-analysis of the deposited data

Results flagged for a closer look

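In 4 pairs of members the correlation differed between the crosses of pA1-pB2 and those of pA2-pB1, by the test of the difference of Fisher's z adjusted over all gene pairs. The difference, as r in pA1-pB2 minus r in pA2-pB1, was 0.369 for GluProRS and eIF3d1, whose genes lie 49 genes apart on 3R, and 0.331 for eIF2gamma and eIF3d1. It was -0.389 for eIF3i and eEF2 and 0.337 for eIF4E1 and eEF2. The last was not called under rank correlation or after the running mean along the line number was removed. What the drift of eEF2 along the line number and the wider spread of eIF3d1 in pA2-pB1 add to these differences was not tested.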

How the results depend on the processing

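Shares of positive pairs are given here as percent. Of the alternative values of group results, 50 stayed within 1.5 times the main value, 26 fell further and 1 rose further; of those of lists and single pairs, 70 lost the threshold or fell further, 6 passed it anew or rose further, and 5, listed below, changed sign with a call on either side. Rank correlation gave 50 among elongation factors. The pA1-pB2 crosses alone gave 8.93 between synthetases and elongation factors and 25 between initiation and elongation factors, where 8.26 of all pairs were positive. The pA2-pB1 crosses alone, which are fewer and for which 3.48 of all pairs were positive, gave 29.7 among synthetases, 19.9 among initiation factors, 38.1 among eIF3 subunits, 16.7 among elongation factors, 17.6 between synthetases and initiation factors, 7.14 between synthetases and elongation factors and 17.6 between initiation and elongation factors. They gave 10.6 for related lists with synthetases (23.2 in all crosses), 11 called regulator pairs with synthetases (32) and 29 with translation factors (65), and 12 shared of the 20 genes closest to the synthetase mean. The median r, which needs no threshold, was 0.192 in pA1-pB2 and 0.074 in pA2-pB1 among eIF3 subunits. Among initiation factors it was 0.091 and 0.0569, among synthetases 0.0988 and 0.149, and among elongation factors 0.053 and 0.111. These differences were not tested. With 10 further components, and 4 of all pairs positive, the shares were 14.3, 22.8 and 16.7 among synthetases, initiation factors and elongation factors, 9.24, 3.57 and 22.1 between groups in the order above, and 5.39 for related lists, with 12 and 20 regulator pairs, 6 shared closest genes and 0 differing pairs. The running mean gave 12.5 between synthetases and elongation factors, where 11.4 of all pairs were positive. Leaving out pairs on the same arm gave 20 among elongation factors.

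The sign turned for ArgRS and TrpRS in pA2-pB1 (0.025) and, with 10 further components, for ArgRS and alpha-PheRS (0.0558), ArgRS and eIF5 (0.0709), mTor and eIF6 (0.0328) and eIF2alpha and eIF2beta (-0.123, called); the cause was not tested. Pairs called in neither setting also changed sign, 5 in pA1-pB2 crosses and 3 with 10 further components. No paired analysis was possible because each cross is 1 sample and the replicate numbers only name it.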
